A study of Mus musculus with 7 samples.

Results

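Maturation of a dendritic cell, the change from an antigen-collecting to a T cell-priming cell, brings a set of cytoskeletal, organelle, adhesion and signalling transcripts with it, and 10 of these were followed in Langerhans cells after ionizing radiation. The genes were Fscn1, Marcks, Marcksl1 and Scin, whose proteins act on actin or the membrane cortex, Mreg and Lamp3, whose proteins sit on organelles, Icam1 and Cd200 on the cell surface, the adaptor gene Traf1, and the secreted enzyme gene Il4i1. They were found by symbol among the 21755 gene symbols on the arrays, and each of the 10 had 1 probe set. They were chosen by name with the irradiated minus control differences of mean log2 intensity on these same arrays, with and without irradiated replicate 1, already known. Those differences are therefore a description and carry no test.

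Langerhans cells are the dendritic cells of the epidermis. When they mature, through inflammatory signals or spontaneously, they leave for the lymph node, grow long actin-rich dendrites, move peptide-loaded MHC molecules from late endosomes to the surface and raise adhesion and costimulatory molecules. Much of this programme is driven by transcription factors of the NF-kappaB family, which TRAF adaptors couple to receptors such as CD40.

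The 7 samples were Langerhans cells of adult wildtype C57:Bl6 mice, sorted by flow cytometry and pooled to over 10000 cells a sample. The 4 control samples came from naive mice and the 3 irradiated samples from mice given 12 Gy of ionizing radiation. The interval between irradiation and sorting, the sex of the mice and whether samples of a group came from separate pools are not stated in the labels, so the spread between samples may be technical. An earlier record is cited for control replicates 1 and 4 and for none of the other 5 samples.

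Values are log2 of the deposited intensity, the brightness of a probe set. The 40% of symbols with the lowest mean, below 6.07 log2, were left out of the tests, which leaves 13053 genes. It was set as a filter, and no detection limit was measured. Of the 10 genes 9 passed it, and Lamp3 did not. Median intensities were 80.2 to 88.2 per array. The library labelled irradiated replicate 1 stood apart: its Pearson correlation with another array was 0.650 to 0.728 over the tested genes, against at least 0.858 between any 2 of the remaining arrays (genes are not independent replicates).

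All 14 Langerhans cell markers were measured and above the dim limit. Their summed intensity was 48395 to 59186 in the controls, 62852 and 65436 in irradiated replicates 2 and 3, and 3712 in the library labelled irradiated replicate 1. In that library Cd207, the gene of langerin, was at 5.64 log2, H2-Aa, an MHC class II gene, at 6.53 and the leukocyte gene Ptprc at 5.61, so the label was not borne out there. The 12 fibroblast markers summed to 32620 in it, to 2321 to 10792 in the controls and to 5512 and 1854 in irradiated replicates 2 and 3. The 18 keratinocyte markers summed to 23021 in it, to 3492 to 14575 in the controls and to 9790 and 7523 in the other irradiated samples. The 8 erythroid and platelet markers summed to 21135 in it and to 736 to 2160 in the controls. In irradiated replicate 3 the 13 T cell markers summed to 2672, against 1001 to 1283 in the controls. No marker was at 0 on any array. Controls also differed among themselves: Cd207 was at 11.49, 10.96, 8.85 and 8.91 in control replicates 1 to 4, and the median of 10 measured monocyte and macrophage markers was at 7.69, 8.81, 10.10 and 9.58. The X-inactivation RNA Xist was at 10.94 to 11.71 in the controls and 5.31 to 5.93 in the irradiated samples, so irradiation and a difference in sex cannot be told apart. In bulk samples fewer cells of a type and less RNA per cell cannot be told apart either. Values are therefore given with and without the library labelled irradiated replicate 1, and the part of the marker differences in any result was not tested.

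**Figure D1:**
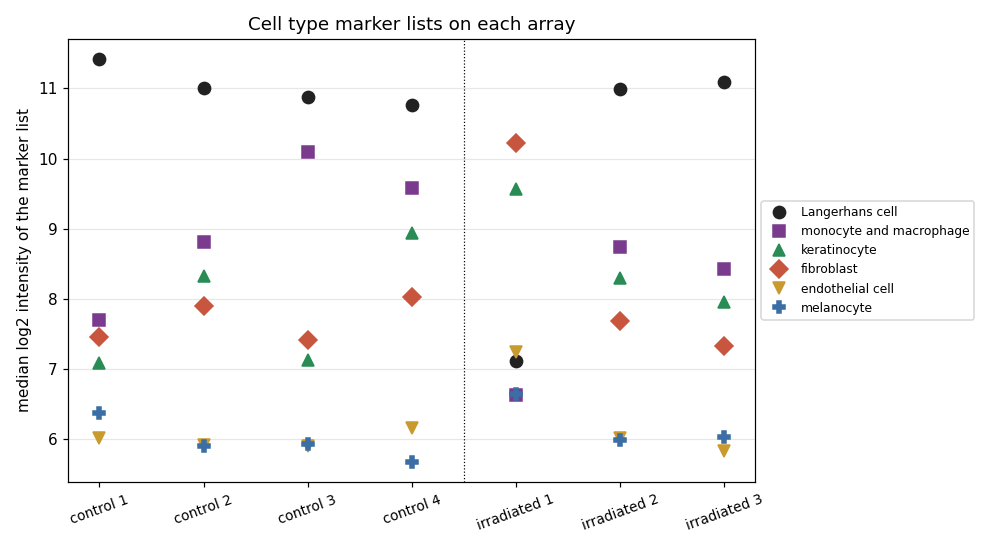
Median log2 intensity of 6 cell type marker lists (y axis) on each of the 7 arrays (x axis, controls left of the dotted line). The Langerhans cell median was 10.76 to 11.42 on 6 arrays and 7.12 in the library labelled irradiated replicate 1, where the fibroblast median was 10.22. The monocyte and macrophage median spread from 7.69 to 10.10 over the 4 controls.

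The promoters of the 4 genes whose irradiated replicates 2 and 3 lay farthest from the controls are shown first, as the reference sequence around the start of each gene. The windows run from 250 bases before to 50 after the annotated start, are 300 bases long and come from RefSeq (GRCm38.p6). A window was found for 9 of the 10 genes. Marcks is named only. Capitals mark matches, on either strand, to TATAAA (the letters of the TATA box), GGGCGG (those of the Sp1 box) and GGAANTTCC, a palindromic run related to the binding site of NF-kappaB. The Icam1 window lies at chr9:21015690-21015989 on the plus strand, Scin at chr12:40134179-40134478 on the minus strand, Mreg at chr1:72212265-72212564 on the minus strand and Fscn1 at chr5:142960105-142960404 on the plus strand, each written 5′ to 3′ in the direction of the gene.
Icam1: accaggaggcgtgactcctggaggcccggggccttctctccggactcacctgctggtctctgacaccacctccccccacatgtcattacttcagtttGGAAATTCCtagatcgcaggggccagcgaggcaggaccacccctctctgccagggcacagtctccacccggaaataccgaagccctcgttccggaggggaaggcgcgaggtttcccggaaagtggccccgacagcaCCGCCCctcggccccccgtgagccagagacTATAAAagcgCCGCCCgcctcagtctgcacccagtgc
Scin: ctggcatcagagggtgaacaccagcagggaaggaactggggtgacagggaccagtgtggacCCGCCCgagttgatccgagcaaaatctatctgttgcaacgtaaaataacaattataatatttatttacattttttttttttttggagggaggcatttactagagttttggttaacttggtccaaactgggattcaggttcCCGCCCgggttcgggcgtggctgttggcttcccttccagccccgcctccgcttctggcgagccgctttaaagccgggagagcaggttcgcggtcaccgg
Mreg: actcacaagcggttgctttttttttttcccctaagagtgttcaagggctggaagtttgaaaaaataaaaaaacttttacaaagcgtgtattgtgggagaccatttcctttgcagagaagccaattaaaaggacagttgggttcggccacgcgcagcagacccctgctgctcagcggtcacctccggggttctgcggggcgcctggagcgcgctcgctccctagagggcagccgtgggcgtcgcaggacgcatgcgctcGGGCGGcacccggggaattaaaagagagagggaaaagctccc
Fscn1: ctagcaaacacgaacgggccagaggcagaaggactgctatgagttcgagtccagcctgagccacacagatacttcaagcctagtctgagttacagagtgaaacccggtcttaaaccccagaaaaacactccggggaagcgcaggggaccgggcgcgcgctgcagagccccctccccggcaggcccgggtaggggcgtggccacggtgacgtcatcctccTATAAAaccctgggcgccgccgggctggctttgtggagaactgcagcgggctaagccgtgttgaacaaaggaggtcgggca

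The Icam1 window holds GGAAATTCC, starting at position -153 from the annotated start. GGAANTTCC occurs in 0.928% of the 32851 promoter windows of the table and in the window of 1 of the 9 genes that had one. TATAAA occurs in 13.6% of all windows and in those of Fscn1 and Icam1. It starts at position -31 in Fscn1, but at position 14, after the annotated start, in Icam1. GGGCGG occurs in 35.7% of all windows and in those of 6 genes, Icam1, Scin and Mreg among them. The kappaB consensus (8.46% of windows), the p53 half-site (8.36%) and the AP-1 motif TGANTCA (7.81%) were searched on both strands. They matched the window of 0 of these 9 genes. No searched matches overlapped in the 4 windows printed. A match is a description of the letters and not evidence of a bound factor.

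The 10 genes did not move as a block. Over all 7 arrays, 5 had a lower and 5 a higher irradiated mean. In 1 of the 10, Icam1, all 3 irradiated samples lay above all 4 controls, and in 0 of the 10 did all lie below. Over the tested genes 3.46% lay above without overlap and 15.3% below. Without the library labelled irradiated replicate 1, 4 lay above (Icam1, Scin, Mreg and Marcksl1), 1 lay below (Fscn1) and 5 overlapped, where the same rule took 10.2% and 20.3% of tested genes. Over all tested genes limma called 0.115% higher and 1.56% lower with all arrays, and 1.58% and 3.06% without that library. Because the differences of the 10 genes were known when they were chosen, nothing is read from the overlap counts. No limma call is given for the 10 genes in this comparison. The median over the 10 genes, taken on each array, differed between the groups by -0.24 log2 with all arrays and by -0.11 without that library. The median of all tested genes differed by -0.12 and -0.13.

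**Figure D2:**
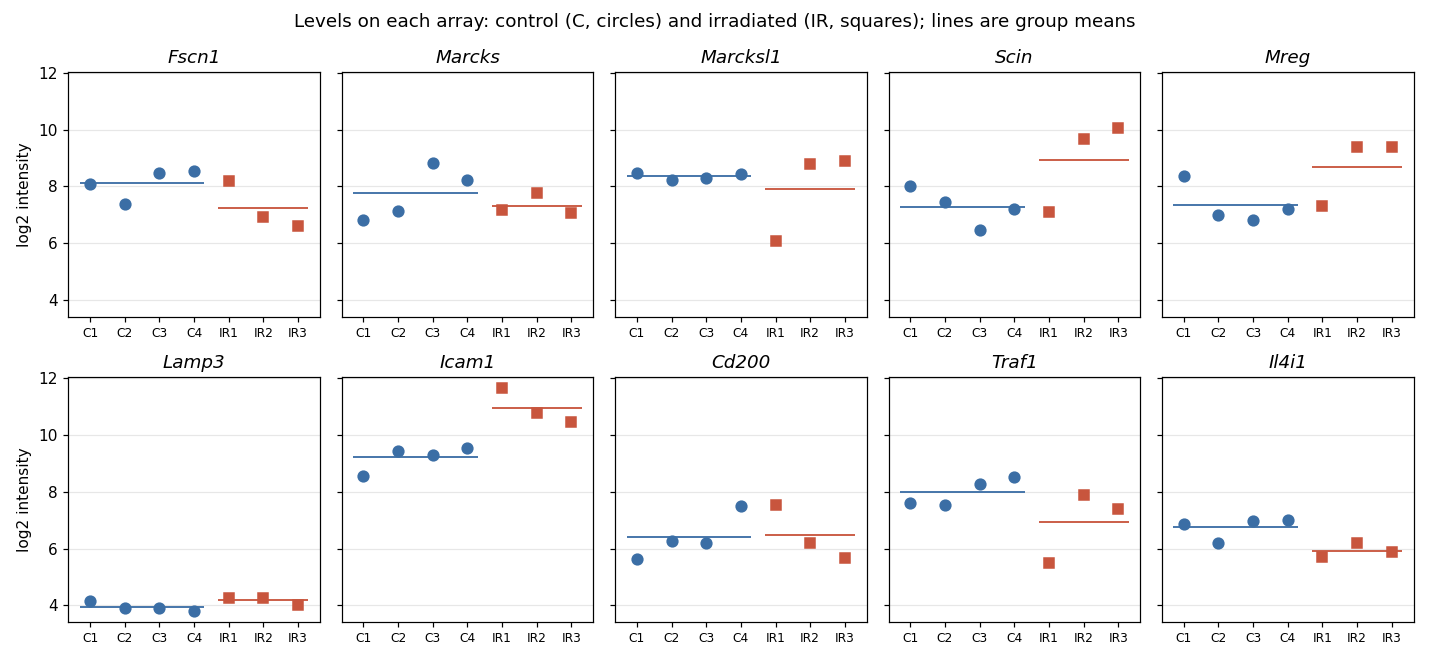
Log2 intensity (y axis) of the 10 genes on each array (x axis), controls as circles and irradiated samples as squares, with lines at the group means. Scin and Mreg stood high in irradiated replicates 2 and 3 while irradiated replicate 1 stayed inside the control range, and Icam1 stood above the controls on all 3 irradiated arrays. Lamp3 lay between 3.81 and 4.26 on every array.

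Among the actin genes, Scin encodes scinderin (adseverin), a calcium-dependent protein of the gelsolin family that severs and caps actin filaments. Its level was 8.01, 7.44, 6.48 and 7.20 log2 in control replicates 1 to 4 and 7.10, 9.68 and 10.07 in irradiated replicates 1 to 3. Irradiated replicates 2 and 3 lay above every control, and replicate 1 lay inside the control range. The means were 7.28 ± 0.63 (SD, n = 4) and 8.95 ± 1.61 (SD, n = 3), a log2 difference of 1.67 (SE 0.71). Here and below, SE is limma's moderated standard error, which draws on the spread of all tested genes and does not follow from the SDs. Without the library labelled irradiated replicate 1 the difference was 2.59 (SE 0.39), 6.04-fold on the linear scale. Within the controls Scin took the same order as Cd207, highest in replicate 1, then 2, 4 and 3. Irradiated replicates 2 and 3 also had the highest Cd207 levels, 12.35 and 11.86, in the reverse order to Scin. In the library labelled irradiated replicate 1 Cd207 was below every control, at 5.64, while Scin was not. Other Langerhans cell markers were mixed. The median of all 14 was 10.99 and 11.09 in irradiated replicates 2 and 3, inside the controls (10.76 to 11.42). Epcam, at 8.87 and 8.77, lay inside the control range too, while H2-Aa, at 13.27 in both, lay above it. Ptprc ran the other way within the controls, lowest in replicate 1 and highest in 3. The part of Langerhans cell content in the Scin signal was not tested.

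Fscn1 encodes fascin, which bundles actin filaments in the dendrites of mature dendritic cells. It was at 8.09, 7.38, 8.48 and 8.55 log2 in the controls and at 8.18, 6.93 and 6.60 in the irradiated samples. The groups overlapped because the library labelled irradiated replicate 1 matched the controls, while irradiated replicates 2 and 3 lay below all of them. The means were 8.13 ± 0.54 (SD, n = 4) and 7.24 ± 0.83 (SD, n = 3), a difference of -0.89 (SE 0.43), and without that library the difference was -1.36 (SE 0.34), 2.57-fold lower. Fscn1 and Scin had the least similar profiles of all 45 pairs of the 10 genes: after centring each gene, they differed by 1.63 log2 per array on average, and by 1.76 without that library.

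Marcks and Marcksl1 encode related substrates of protein kinase C that bind actin and the inner face of the plasma membrane. Marcks was at 6.82, 7.15, 8.83 and 8.21 log2 in the controls and 7.16, 7.76 and 7.06 in the irradiated samples. All 3 irradiated values lay within the control range, which spanned 2.01 log2 (difference -0.43, SE 0.48). The order of the controls for Marcks, lowest in replicate 1, then 2, 4 and 3, was that of the monocyte and macrophage marker median. The irradiated samples did not share an order: that median was 6.63, 8.74 and 8.42, lowest in replicate 1, whereas Marcks was lowest in replicate 3. The part of these cells in the Marcks signal was not tested. Marcksl1 was steady in the controls at 8.48, 8.23, 8.29 and 8.45 and was at 6.09, 8.78 and 8.90 in the irradiated samples. Its library labelled irradiated replicate 1 lay below all controls, whereas the other irradiated samples lay above all of them. The difference was -0.44 (SE 0.64) with all arrays and 0.47 (SE 0.17) without that library, so that library set its sign.

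Mreg encodes melanoregulin, known for the transport and maturation of lysosome-related organelles, among them the melanosomes of pigment cells. Its level was 8.38, 6.98, 6.80 and 7.22 log2 in the controls and 7.32, 9.39 and 9.39 in the irradiated samples. Irradiated replicates 2 and 3 lay above all controls, among which replicate 1 was highest. The means were 7.35 ± 0.71 (SD, n = 4) and 8.70 ± 1.19 (SD, n = 3), a difference of 1.35 (SE 0.59), and without the library labelled irradiated replicate 1 it was 2.04 (SE 0.42), 4.12-fold. Since melanocytes also express Mreg, their markers were examined. Of 10 listed, 9 were measured and 4 of those passed the dim limit, and they summed to 695 to 784 in the controls and to 869, 782 and 856 in the irradiated samples. Mreg and Scin had the most similar profiles of the 45 pairs, differing by 0.35 log2 per array. Without the library labelled irradiated replicate 1 they differed by 0.36, and 5 other pairs were closer, Lamp3 with Marcksl1 (0.171) and Il4i1 with Traf1 (0.211) the closest. Genes that vary little come out as alike by this measure, and Lamp3 lay below the dim limit on every array.

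Lamp3 encodes DC-LAMP, a lysosomal membrane protein named for its presence in mature dendritic cells. Its probe set was dim everywhere, at 4.13, 3.92, 3.92 and 3.81 log2 in the controls and 4.26, 4.26 and 4.01 in the irradiated samples. All 7 values lay below the dim limit of 6.07, so no direction is read from the difference of 0.23. Its relatives Lamp1 and Lamp2, structural proteins of the lysosomal membrane, were measured at means of 10.49 and 10.42 in the controls and 10.19 and 10.40 in the irradiated samples, and neither passed the limma test (adjusted p = 0.590 and 0.957).

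At the cell surface, Icam1 encodes the adhesion molecule that binds the integrin LFA-1 of T cells, and its gene is a known target of NF-kappaB. Its level was 8.56, 9.43, 9.30 and 9.54 log2 in the controls and 11.65, 10.77 and 10.44 in the irradiated samples. All irradiated samples lay above all controls, and the highest was the library labelled irradiated replicate 1, whose fibroblast, endothelial and keratinocyte markers were also high. The means were 9.21 ± 0.44 (SD, n = 4) and 10.95 ± 0.62 (SD, n = 3), a difference of 1.74 (SE 0.37), 3.35-fold. Without that library it was 1.39 (SE 0.30), 2.63-fold. The 8 endothelial markers, a cell type that carries Icam1, summed to 494 to 543 in the controls, to 1431 in that library and to 592 and 497 in irradiated replicates 2 and 3. The part of these cells in its Icam1 signal was not tested.

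Cd200 encodes a surface ligand that restrains myeloid cells carrying its receptor. It was at 5.63, 6.27, 6.18 and 7.51 log2 in the controls and 7.55, 6.18 and 5.68 in the irradiated samples. Control replicate 4 and the library labelled irradiated replicate 1 were both high, and the groups overlapped with and without that library. The same arrays had the highest marker medians for keratinocytes (8.94 and 9.57), fibroblasts (8.02 and 10.22) and endothelial cells (6.16 and 7.25). The part of these cells in the Cd200 signal was not tested. The difference was 0.075 (SE 0.54) with all arrays and -0.46 (SE 0.47) without that library.

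Traf1 encodes an adaptor of TNF receptor signalling that NF-kappaB itself induces. It was at 7.61, 7.54, 8.27 and 8.50 log2 in the controls and 5.49, 7.88 and 7.40 in the irradiated samples. The library labelled irradiated replicate 1 lay below all controls and below the dim limit, and irradiated replicate 2 lay among the controls. The difference was -1.06 (SE 0.55) with all arrays and -0.34 (SE 0.32) without that library.

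Il4i1 encodes a secreted L-amino acid oxidase that consumes phenylalanine and limits T cell growth. It was at 6.85, 6.19, 6.95 and 7.02 log2 in the controls and 5.70, 6.19 and 5.89 in the irradiated samples. Irradiated replicate 2 and control replicate 2 held the same deposited value, which is the only contact between the groups, and the irradiated mean of 5.93 ± 0.25 (SD, n = 3) lay below the dim limit. The control mean was 6.75 ± 0.38 (SD, n = 4). The difference was -0.83 (SE 0.22) with all arrays and -0.71 (SE 0.25) without the library labelled irradiated replicate 1. Against Scin and Mreg, which lay above the controls in irradiated replicates 2 and 3, Il4i1, Traf1 and Fscn1 thus had lower irradiated means in both comparisons.

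**Figure D3:**
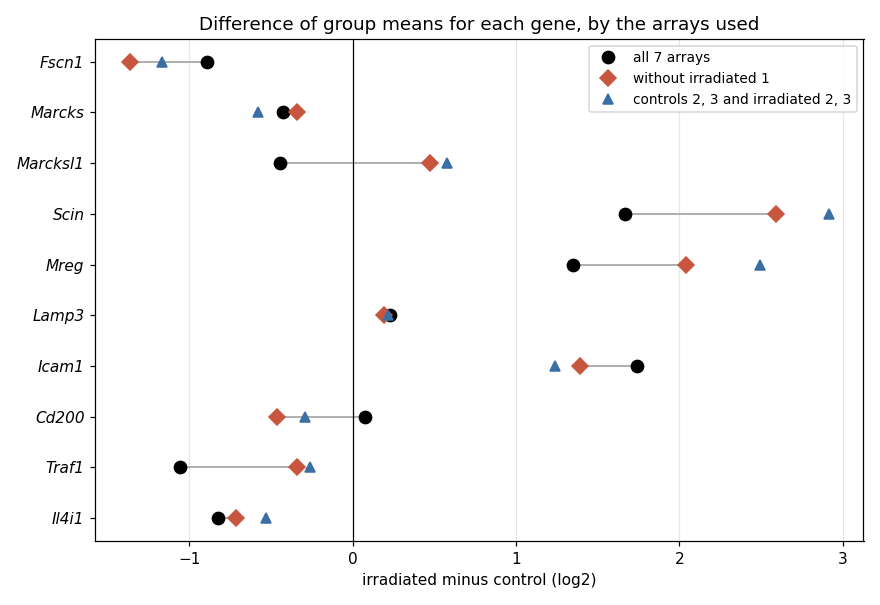
Irradiated minus control difference of mean log2 intensity (x axis) for each gene (y axis), with all 7 arrays (black circles), without the library labelled irradiated replicate 1 (orange diamonds) and for controls 2 and 3 against irradiated replicates 2 and 3 (blue triangles). Marcksl1 and Cd200 changed sign without that library, and Scin reached 2.59 without it.

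Of the 10 differences, 2 changed sign without the library labelled irradiated replicate 1, those of Marcksl1 and Cd200. Against the controls that cite no earlier record, and with irradiated replicates 2 and 3 alone, Scin differed by 2.91, Mreg by 2.50, Icam1 by 1.24 and Fscn1 by -1.17. In 7 of the 10 genes the library labelled irradiated replicate 1 lay more than 1 log2 from the mean of the other irradiated samples, below it for Scin, Mreg, Marcksl1 and Traf1 and above it for Fscn1, Icam1 and Cd200.

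The controls gave a comparison that the choice of genes had not used. Control replicates 1 and 4, whose labels cite an earlier record, were tested against 2 and 3 with limma across all genes. Of the 9 genes above the dim limit 0 were called, and 0% of all genes were called in either direction, with 34 of 13053 (0.26%) at an unadjusted p under 0.05. The largest difference among the 10 was that of Mreg, 0.91 log2 higher in replicates 1 and 4 (SE 0.43, limma adjusted p = 1), followed by Scin, 0.64 higher (SE 0.45, adjusted p = 1). With 2 arrays a side, this does not show that the controls were alike. Each side also joined unlike samples: Cd207 was at 11.49 and 8.91 in replicates 1 and 4 and at 10.96 and 8.85 in 2 and 3. Such a spread within a side leaves the comparison little power to call a gene. Control values of Marcks spanned 2.01 log2 and those of Marcksl1 0.26.

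Other genes of the same pathways were grouped in 6 lists without the 10 genes. Of their 209 tested genes 0 rose and 6 fell (limma, adjusted p under 0.05), 2.87% lower against 1.56% of all genes. Without the library labelled irradiated replicate 1 there were 9 that rose and 9 that fell, 4.31% each, where 1.58% of all genes rose and 3.06% fell. The 6 falls with all arrays dropped to 0 without irradiated replicate 2, control replicate 3 or control replicate 4, to 1 without control replicate 2 and to 2 without irradiated replicate 3.

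Of 59 tested actin genes 0 rose, 2 fell and 57 did not pass, with a median log2 difference of -0.68. Cfl1, the gene of the filament-severing protein cofilin, was at 12.23 to 12.44 in the controls and 11.12, 11.43 and 11.56 in the irradiated samples, and fell by 0.98 (SE 0.16, limma adjusted p = 0.0329). Pfn1, the gene of the monomer-binding protein profilin, was at 12.08 to 12.33 in the controls and at 10.54, 10.92 and 11.35 in the irradiated samples. It fell by 1.30 (SE 0.22, limma adjusted p = 0.0350). Irradiated samples lay below all controls for both genes, and both also fell without the library labelled irradiated replicate 1 (log2 differences -0.86 and -1.10). Without it 3 actin genes fell and 2 rose. The third fall was Tmsb10, a gene of the monomer-binding thymosins (-1.43, limma adjusted p = 0.0461). The rises were the unconventional myosin gene Myo1e by 1.12 (limma adjusted p = 0.0431) and Swap70, a Rac-binding actin regulator gene, by 0.93 (limma adjusted p = 0.0465), and all 3 were picked once their values were known. The median of the actin genes in that comparison was -0.40.

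Of 35 other maturation genes 0 rose, 1 fell and 34 did not pass, and their median difference was -0.57. The chemokine gene Ccl17 fell by 3.24 (SE 0.55, limma adjusted p = 0.0355). When the library labelled irradiated replicate 1 was left out, the median was -0.23 and 2 rose, the maturation marker gene Cd83 and the costimulatory gene Cd86, both chosen after their values were seen. Cd83 was at 10.89 to 11.23 in the controls, at 12.82 and 12.39 in irradiated replicates 2 and 3 and at 7.86 in that library, a rise of 1.52 without it (SE 0.18, limma adjusted p = 0.0104). Cd86 was at 9.57 to 9.74 in the controls, at 10.88 and 10.81 in irradiated replicates 2 and 3 and at 5.62 in that library, a rise of 1.17 without it (SE 0.16, limma adjusted p = 0.0153). In that comparison, too, Ccl17 fell by 3.09 (limma adjusted p = 0.0437), and Zmynd15 fell by 1.32 (limma adjusted p = 0.0313). The genes named here were picked by their calls, so their directions are a description and nothing is read from them. Of the 35 maturation genes, 22 (62.9%) had a difference below 0 without the library labelled irradiated replicate 1, against 56.4% of all tested genes.

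Of 39 genes of TRAF and NF-kappaB signalling 0 rose, 1 fell and 38 did not pass, with a median of -0.10 with all arrays and 0.17 without the library labelled irradiated replicate 1, so that library set its sign. Irak4, a kinase gene of Toll-like receptor signalling, fell by 0.86 (SE 0.16, limma adjusted p = 0.0462), and by 0.87 without that library. Without it 5 rose, all chosen here after their values were seen. They were the adaptor gene Traf4 (1.49, limma adjusted p = 0.0315), the NF-kappaB subunit genes Rel (1.07, adjusted p = 0.0448) and Relb (0.97, adjusted p = 0.0309), and the inhibitor genes Tnip1 (1.28, adjusted p = 0.0231) and Cyld (0.92, adjusted p = 0.0245). Relb was at 7.43 to 7.77 in the controls and at 7.53, 8.41 and 8.68 in irradiated replicates 1 to 3. These 5 were named because they were called higher, so nothing is read from their levels above the controls. Of the 39 genes, 12 (30.8%) had a difference below 0 without the library labelled irradiated replicate 1, against 56.4% of all tested genes. In that comparison the share was 78% for actin, 82.5% for late endosomes and organelle transport, 68% for adhesion and inhibitory contact and 75% for amino acid catabolism. With all arrays the lists ran from 61.5% in this one to 85.7% among maturation genes, against 55% of all tested genes.

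Of 40 genes of late endosomes and organelle transport 0 rose, 0 fell and 40 did not pass, with a median of -0.35 (-0.20 without the library labelled irradiated replicate 1, where 0 were called as well). The member with the highest mean, the lysosomal membrane gene Laptm5, was at 12.13 ± 0.12 (SD, n = 4) and 10.60 ± 2.15 (SD, n = 3) and did not pass (limma adjusted p = 0.359). It was at 8.12 in the library labelled irradiated replicate 1 and at 11.80 and 11.89 in the other irradiated samples, and its difference went from -1.53 to -0.29 without that library. Among 25 genes of adhesion and inhibitory contact 0 rose and 1 fell, with a median of -0.69 (-0.30 without that library). It was Selplg, the gene of the selectin ligand PSGL-1, which fell by 2.06 (SE 0.32, limma adjusted p = 0.0268). Without that library the integrin gene Itgax fell as well, by 1.14 (limma adjusted p = 0.0247). Among 12 genes of amino acid catabolism 0 rose and 1 fell, with a median of -0.72 (-0.65 without that library). It was Kmo, the gene of kynurenine monooxygenase, at 6.51 to 7.64 in the controls and 4.83, 5.45 and 4.87 in the irradiated samples, which fell by 2.18 (SE 0.30, limma adjusted p = 0.0166) to values below the dim limit.

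**Figure D4:**
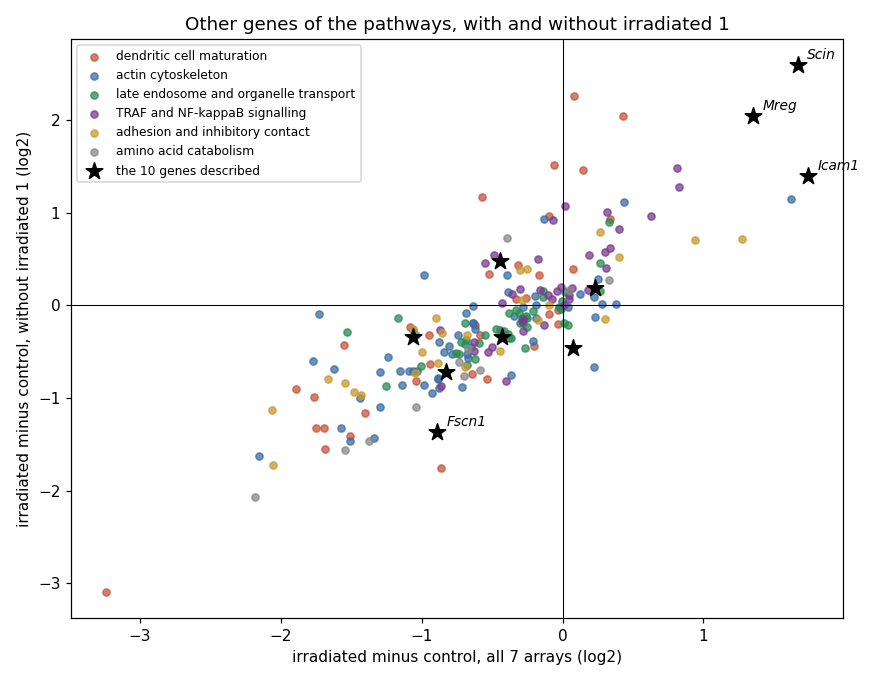
Irradiated minus control difference of mean log2 intensity with all 7 arrays (x axis) and without the library labelled irradiated replicate 1 (y axis). Coloured points are the tested genes of 6 pathway lists and black stars the 10 genes described. Scin, Mreg and Icam1 lie at the upper right, with 2.59, 2.04 and 1.39 on the y axis, and of all 13053 tested genes 7183 have a value below 0 with all arrays and 7363 without that library.

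The median profile of the 10 genes over 7 arrays, each gene centred on its mean, ran from -0.51 in the library labelled irradiated replicate 1 to 0.45 in control replicate 4. Among 11654 named genes the ones nearest to it, by mean absolute difference over the 7 arrays, were the ribosomal protein genes Rps25 (0.103 log2), Rps7 (0.104) and Rpl11 (0.117), then Cnot7 (0.117) and Cdv3 (0.120). Over the 6 arrays without that library they were D16Ertd472e (0.0508), Trim6 (0.0611), Rpl23a (0.0694), Tdg (0.0706) and Cdh5 (0.0735). The 2 sets shared no gene, and the median profile was flat beside Scin, which spanned 3.59 log2.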

How the data were processed

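RNA of 7 samples was labelled with biotin and hybridised, per the labels' protocols. The authors deposited intensities on a linear scale (3.99 to 19977 over all arrays). The submitters' processing notes name RMA, robust multi-array averaging. The array design and the set of arrays normalised jointly were not given in the labels. The 2 deposited tables held equal values (174454 of 174454 within 1e-09). Log2 was taken here, 1 probe set per symbol was kept (highest mean) and the lowest 40% of symbols were left out of tests. Groups came from sample titles and were compared in R 4.3.3 by limma 3.58.1 (lmFit, then eBayes with trend = TRUE), Benjamini-Hochberg adjusted over 13053 genes, threshold 0.05, after tests on simulated data. The members and lists were chosen with earlier results of these data known. Named beside the 10 genes were up to 3 called genes a list by size (else the one with the highest mean), 5 genes of most similar profile and fixed reference genes. Genes called in the comparison without irradiated replicate 1 alone, and Lamp1 and Lamp2, were named after their values were seen. Alternatives covered filter, variance, scaling, probe sets, offset, block, earlier record and single arrays.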

Additional observations from a re-analysis of the deposited data

How the results depend on the processing

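Of the 10 differences, those of Icam1, Scin, Mreg and Lamp3 stayed above 0 and those of Fscn1, Marcks, Traf1 and Il4i1 below 0 in each of the 18 alternatives run. Marcksl1 was above 0 in 3 of 18 and Cd200 in 13 of 18. The 18 were not separate checks. Each gene had 1 probe set and the 2 deposited tables were equal, so those alternatives could change nothing. The earlier record as a term gave the same differences as the controls citing no earlier record. The replicate block gave those found without control replicate 4. No direction is read from Lamp3, which lay below the dim limit. The median difference over the 10 genes was -0.46 to -0.11 with single arrays left out, but 0.17 with array weights and 0.089 for controls 2 and 3 against irradiated replicates 2 and 3, a comparison chosen after seeing the data. In that comparison 5 of the 10 genes lay above without overlap and 1 below. The share of all tested genes without overlap was not computed there, so nothing is read from that count. By limma, a different measure, 1 gene was called higher and 0 lower over all tested genes. With single arrays left out, 1 to 4 of the 10 lay above and 0 to 2 below. Against controls citing no earlier record 3 lay above, and 1 lay below against those citing one, with quantile normalisation and with median centring. Among these alternatives the share of all tested genes was computed only without the library labelled irradiated replicate 1 (10.2% above and 20.3% below). Nothing is therefore read from these counts.

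Calls over all genes ranged from 0 to 206 higher and 2 to 399 lower with single arrays left out. Without irradiated replicate 2 they were 0 and 2, without irradiated replicate 3 7 and 49, without control replicate 2 1 and 19, without control replicate 3 2 and 46, and without control replicate 4 0 and 2. They were 831 and 2645 with array weights, 46 and 593 at a threshold of 0.1, and 130 lower without a filter. Same-numbered control and irradiated samples did not deviate together (correlations 0.021, -0.055 and 0.168), so the numbers were not taken as pairs, and the replicate block gave 0 and 0, while the earlier record as a term gave 0 and 1 and either set of controls alone gave 0 and 1. Calls among pathway genes were 0 to 9 higher and 0 to 9 lower with single arrays left out, 11 and 57 with array weights, 11 lower at 0.1 and 3 lower without a filter. They were 0 lower with the replicate block, the earlier record as a term, either set of controls, or controls 2 and 3 against irradiated replicates 2 and 3. The 6 falls were reduced to 0 without irradiated replicate 2, control replicate 3 or control replicate 4, to 1 without control replicate 2 and to 2 without irradiated replicate 3. The control comparison gave 0 calls in each of its 8 alternatives. The cause of these changes was not tested. Settings of the test alone leave the differences and overlaps as they are. Signal near the dim limit limits Lamp3 and the irradiated values of Il4i1.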
